A study of Mus musculus with 42 samples.

Results

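Endoplasmic reticulum (ER) stress and unfolded protein response (UPR) genes were followed across 4 hypothalamic nuclei of fed and fasted mice. The list held 32 genes, a set of named genes with a known role in ER folding, degradation or stress signalling, chosen with earlier results of these data known, among the 37907 gene IDs of the table. Each of the 32 matched 1 ID, and all 32 passed the filter on low values, Trib3 only through fed libraries. The mice were adult wild-type males of strain C57/BL6, with no transgene. Food was available ad libitum or had been withdrawn 24 hours before the brain was taken. The arcuate nucleus (ARC), ventromedial hypothalamus (VMH), dorsomedial hypothalamus (DMH) and paraventricular nucleus (PVN) were cut from cryosections by laser-capture microdissection. Of the 42 libraries, 10 were from the ARC (5 per state), 12 from the VMH (6 per state), 9 from the DMH (5 fed, 4 fasted) and 11 from the PVN (6 fed, 5 fasted). A dissected nucleus holds neurons, glia and vessels, so in these bulk samples fewer cells of a type and less RNA per cell cannot be told apart.

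The ER is where secreted and membrane proteins are folded. When unfolded proteins accumulate, the sensors IRE1 (encoded by Ern1), PERK (Eif2ak3) and ATF6 (Atf6) start the UPR. IRE1 splices the mRNA of the transcription factor Xbp1. PERK phosphorylates the translation factor eIF2alpha, which lowers general translation and favours that of Atf4, and ATF6 is cut into an active transcription factor. Together they raise the chaperones, disulfide isomerases and degradation factors of the ER, and Ddit3 (CHOP) marks prolonged stress. Neurosecretory cells such as the vasopressin and oxytocin neurons of the PVN carry a high load of secreted protein, and hypothalamic ER stress has been studied for its effect on leptin and insulin signalling. Gene-level values do not separate spliced from unspliced Xbp1, and the activity of the sensors is not read by mRNA abundance.

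Levels are given in RPKM (reads per kilobase of exon, scaled to library depth) and differences as log2 of RPKM + 1, each with its standard error (SE). A gene was called where the Benjamini-Hochberg adjusted p of limma over all 33579 genes tested was under 0.1. The deposited values include a small added count, so a gene without reads is above 0. The estimated depth of a library was 4.57 M reads in the mean and ranged from 1.33 to 13.2 M reads. Fed DMH libraries held 3.91 ± 0.862 M reads (SD, n = 5) and fasted ones 7.38 ± 4.0 M reads (SD, n = 4), so depth and nutritional state were partly confounded there. Each nucleus held its own defining markers, for example Npy at 345 RPKM in the fed ARC, Fezf1 at 95.0 in the fed VMH, Npvf at 102.6 in the fed DMH and Oxt at 4066 in the fed PVN (group means). The values fell into 3 sets of libraries (10, 16 and 16) that share recurring low values, called batches here. The methods of the study name 3 batches of capture and library preparation, but no label ties a library to one. The mean log2 RPKM of a gene was the same in all 3 sets (largest deviation 4.61e-08, median over genes). Differences between the sets had thus been removed from the deposited values. Such removal can shift groups spread unequally over the sets, such as the fasted DMH, with 0 libraries in the set of 10. All 4 nuclei were captured from the same brains, but the labels do not tie libraries to mice, so no comparison across nuclei accounts for libraries that share a mouse. If libraries of a mouse vary together, p-values for the mean of the 4 nuclei are too small and those for a difference between nuclei too large.

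The promoters of several chaperone genes carry the sequence that ATF6 and XBP1 are known to use, the ER stress response element (ERSE), and these are shown because the chaperones are the members on which the results below turn. RefSeq promoters (250 bases before to 50 bases after the start, build GRCm38.p6) were held for 27 of the 32 genes. Manf, Hyou1, Atf6, Hspa13 and Derl1 had none in the table. The exact ERSE was searched on both strands as CCAAT, 9 bases of any kind, and CCACG. It was found in 8 of the 27 genes (29.6%), against 37 of all 27025 genes with a promoter (0.137%). The 8 were Hspa5, Hsp90b1, Pdia6, Calr, Canx, Dnajc3, Creld2 and Syvn1. Stretches around these elements read 5′ to 3′ on the strand of the gene, with the ERSE in capitals. It appears as its complement, CGTGG to ATTGG, in Calr and Creld2.
Hspa5 (chr2:34772020-34772048, + strand): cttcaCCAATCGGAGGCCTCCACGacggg
Hsp90b1 (chr10:86705633-86705661, - strand): caagcCCAATCGCAAGGAGCCACGcttcg
Pdia6 (chr12:17266461-17266539, + strand): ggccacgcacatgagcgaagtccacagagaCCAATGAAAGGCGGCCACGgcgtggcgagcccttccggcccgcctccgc
Calr (chr8:84847045-84847123, - strand): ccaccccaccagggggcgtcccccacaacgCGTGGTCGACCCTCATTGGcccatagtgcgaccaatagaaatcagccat
Canx (chr11:50325770-50325848, - strand): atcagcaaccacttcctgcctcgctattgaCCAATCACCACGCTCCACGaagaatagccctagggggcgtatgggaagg
Dnajc3 (chr14:118937797-118937875, + strand): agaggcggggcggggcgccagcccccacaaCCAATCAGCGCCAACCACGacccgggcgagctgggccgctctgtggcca
Creld2 (chr15:88819490-88819568, + strand): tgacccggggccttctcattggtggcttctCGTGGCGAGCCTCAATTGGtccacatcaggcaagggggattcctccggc
Syvn1 (chr19:6046502-6046575, + strand): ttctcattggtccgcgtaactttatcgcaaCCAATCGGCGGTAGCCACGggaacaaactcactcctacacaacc

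The elements lay between positions -212 and -26 from the start, that of Hspa5 from -65 to -47 of the RefSeq start and that shown for Hsp90b1 from -212 to -194, and Hsp90b1 held another copy from -107 to -89. The variant ERSE-II, searched as ATTGG, 1 base and CCACG, was found in Dnajb11 and Herpud1, 2 of 27 genes (7.41%) against 12 of all genes (0.0444%). The core TTGCATCA of the C/EBP-ATF response element, through which ATF4 is known to act, was found in Herpud1 and Chac1, again 7.41% against 1.03% of all genes. The UPR element core TGACGTGG was in 0 of the 27 and in 0.714% of all genes. Herpud1, an ER membrane protein of the degradation machinery, was the member that held both an ATF4 core and an ERSE-II, here in capitals in that order.
Herpud1 (chr8:94386287-94386417, + strand): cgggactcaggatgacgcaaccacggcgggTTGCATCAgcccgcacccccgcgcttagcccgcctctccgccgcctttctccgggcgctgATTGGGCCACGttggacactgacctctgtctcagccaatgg

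The GENCODE annotation, from which the gene coordinates below are taken, starts Hspa5 further upstream, so there the stretch shown lies in its first exon. A match describes letters in this window and is no evidence of binding. The 5 letters CCACG alone was in 22 of the 27 genes (81.5%), but also in 35.5% of all genes.

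Levels of the list followed the nucleus more than the nutritional state. The median over the 32 genes of the deviation from each gene's mean was 0.35 ± 0.06 (SD, n = 6) in fed and 0.32 ± 0.10 (n = 5) in fasted PVN libraries on the log2 scale. It was 0.14 ± 0.09 (n = 5) and 0.09 ± 0.13 (n = 5) in the ARC, and -0.07 ± 0.11 (n = 5) and -0.15 ± 0.04 (n = 4) in the DMH. In the VMH it was -0.22 ± 0.09 (n = 6) and -0.36 ± 0.13 (n = 6). The lowest PVN library, at 0.17, lay above every VMH library, the highest of which was at -0.08, and also above every DMH library, the highest of which was at 0.10.

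**Figure D1:**
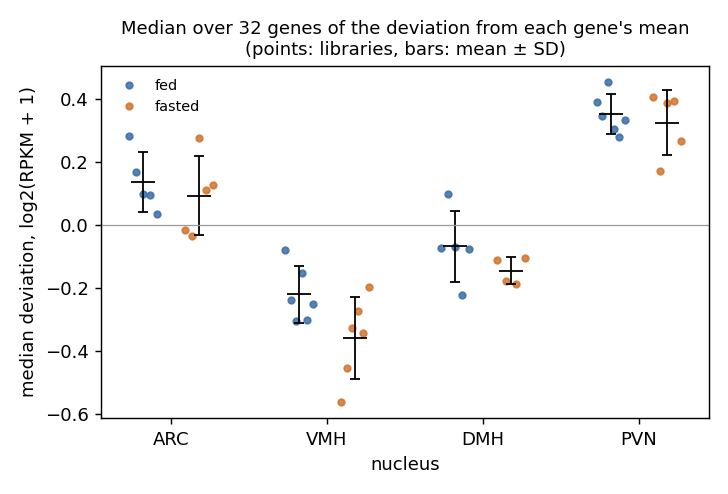
Median over the 32 genes of the deviation of log2(RPKM + 1) from each gene's mean over the libraries (y axis), for fed and fasted libraries of each nucleus (x axis). Points are libraries and bars the mean ± SD. PVN libraries lie between 0.17 and 0.45 and VMH libraries between -0.56 and -0.08.

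Among fed mice, the first comparison was whether UPR genes differed between the nuclei. The limma F test over the 4 fed groups called 16 of the 32 genes, against 12.4% of all genes tested. Among genes of at least 5 RPKM in at least 4 libraries it called 17 of 28, against 21.9%. Of the genes that pass this filter, 21.0% (VMH) and 14.7% (PVN) still had no difference at all between fasted and fed mice. The background of 21.9% may thus still be lowered by genes without reads. In fasted mice the test called 19 of 32, against 11.9%. The 16 genes called in fed mice were all among the 19, with Calr, Derl1 and Derl2 added. The PVN had the highest mean for 26 genes in fed and 23 in fasted mice, and the VMH the lowest for 19 and 23. The share of all genes with these ranks was not computed, so how far this order belongs to the list is not known.

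In fed mice, 16 of the 32 genes were higher in the PVN than in the VMH, against 4.96% of all genes, and 1, the degradation adaptor Sel1l, was higher in the VMH, against 4.88%. Against the DMH, the PVN was higher for 14 genes (background 1.73%), and against the ARC for 6 (2.22%). The ARC was higher than the VMH for 11 genes (3.83%) and higher than the DMH for 3 (1.33%), which were Hsp90b1, P4hb and Manf. The DMH was higher than the VMH for 2, Hsp90b1 and Ern1 (2.39%). No gene of the list was called in the opposite direction of any of these pairs except Sel1l. Markers of cell types also differed between the nuclei. The sum of 5 neuronal markers was 1181 ± 58.2 RPKM (SD, n = 6) in the fed VMH, 791 ± 69.5 (n = 6) in the PVN, 721 ± 32.6 (n = 5) in the DMH and 589 ± 24.2 (n = 5) in the ARC. Most of this gap was Snap25 (813 RPKM in the fed VMH, 434 in the PVN), while Tubb3 (81.4 and 107) and Stmn2 (184 and 204) were higher in the PVN. The sum of 6 oligodendrocyte markers was 261 ± 41.9 RPKM in the fed VMH against 107 ± 18.7 in the PVN, and that of 5 endothelial markers 34.8 ± 16.2 against 55.3 ± 4.52. All markers of these lists were detected, and their part in the differences between nuclei was not tested.

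**Figure D2:**
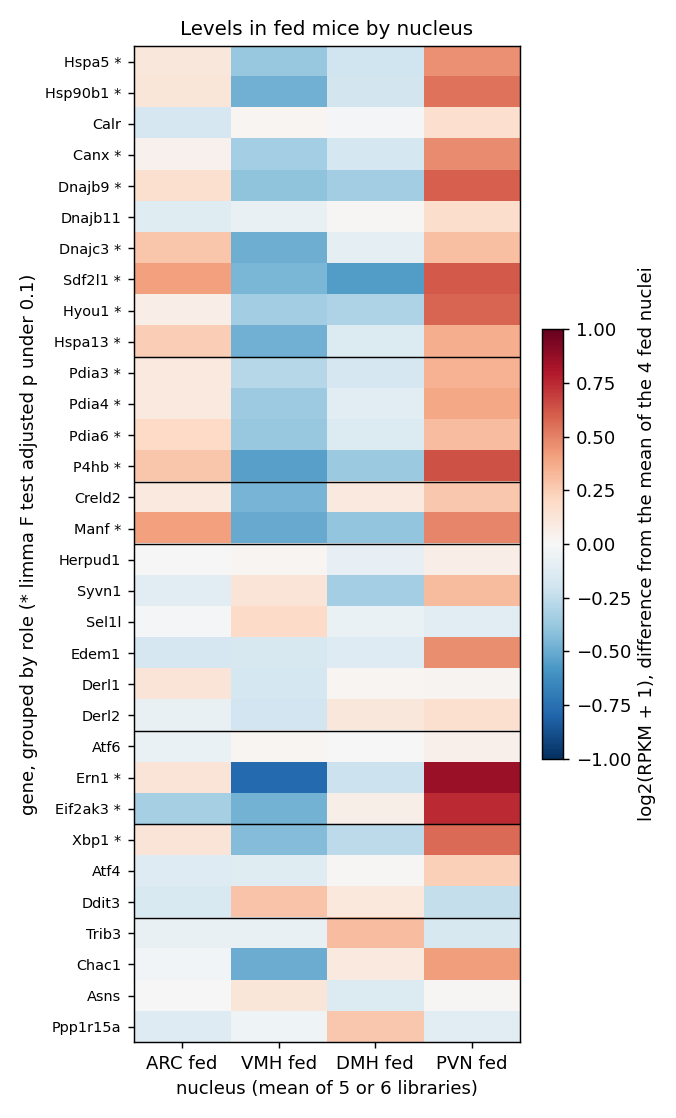
Mean log2(RPKM + 1) in each fed nucleus (columns, 5 or 6 libraries each) of the 32 genes (rows, grouped by role), as the difference from the mean of the 4 fed nuclei. Stars mark the 16 genes called by the limma F test. The PVN column is red and the VMH column blue for most chaperones, isomerases and 2 of the 3 sensors.

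The ER chaperones carried the most abundant transcripts of the list. Hsp90b1 (GRP94, chromosome 10, 86690209 to 86705509), the HSP90 of the ER lumen, was at 403, 424 and 484 RPKM (lowest, median and highest of 6) in the fed PVN and at 193, 207 and 257 in the fed VMH. In the fed ARC its 5 libraries were at 288, 314, 326, 349 and 352 RPKM, and in the fed DMH at 250.9, 258, 264, 266 and 272. The fed groups were thus in the order PVN, ARC, DMH, VMH, with PVN and ARC overlapping no neighbour and only 1 VMH library reaching into the DMH range. The VMH minus PVN difference was -1.02 (SE 0.07, limma adjusted p = 8.24e-14), and every pair of neighbours in this order was called. Exons of other genes overlap 15.7% of its exon length and 9.76% of its 50-base stretches recur in another transcript, so its level is uncertain to that extent.

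Hspa5 (BiP or GRP78, chromosome 2, 34771970 to 34777547), the HSP70 of the ER lumen that also holds the sensors inactive, followed the same order. It was at 209.9, 223 and 236 RPKM (lowest, median and highest of 6) in the fed PVN and at 107, 128 and 138 in the fed VMH. The 5 fed ARC libraries were at 157, 159, 179, 186 and 196 RPKM, and the 5 fed DMH libraries at 109.9, 132, 139.6, 159.8 and 168. PVN libraries lay above those of every other nucleus, while the DMH overlapped both the ARC and the VMH. The VMH was lower than the PVN by 0.84 (SE 0.11, limma adjusted p = 3.44e-07) and the ARC lower than the PVN by 0.34 (SE 0.11, limma adjusted p = 0.0971). VMH minus DMH (-0.18, SE 0.11) and ARC minus DMH (0.32, SE 0.12) were not called.

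Canx, the membrane-bound lectin chaperone that holds glycoproteins, was at 159, 170.1 and 177 RPKM (lowest, median and highest of 6) in the fed PVN and 86.5, 95.3 and 107 in the fed VMH, a difference of 0.82 (SE 0.09, limma adjusted p = 6.64e-09). The ARC libraries lay between 119 and 129 RPKM and the DMH libraries between 96.8 and 113. Every PVN library was thus above every ARC library, and every ARC library above those of the DMH and VMH, which overlapped. Calr, its soluble counterpart, differed far less. It was at 77.8 ± 11.4 RPKM (SD, n = 6) in the fed PVN and 70.1 ± 7.34 (n = 6) in the fed VMH, and passed the test in fasted nuclei (limma adjusted p = 0.0264) but not in fed nuclei (0.424). Whether the nuclei differ more in fasted than in fed mice was tested by the interaction, which Calr did not pass.

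Of the other chaperones and co-chaperones, Hyou1, Hspa13, Dnajb9, Dnajc3 and Sdf2l1 were called between fed nuclei, with VMH minus PVN differences from -0.79 for Dnajc3 to -1.07 for Sdf2l1, and Dnajb11 was not called (-0.25, SE 0.15). Dnajb9 (ERdj4), a BiP co-chaperone, was at 41.5 ± 8.91 RPKM (SD, n = 6) in the fed PVN and 20.6 ± 5.93 in the fed VMH, and 5.50% of its 50-base stretches recur in a pseudogene.

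All 4 disulfide isomerases were called between fed nuclei. P4hb (PDI), the founding member of the family, was at 49.2, 61.5 and 68.3 RPKM (lowest, median and highest of 6) in the fed PVN and at 20.4, 26.7 and 30.9 in the fed VMH, a difference of 1.18 (SE 0.12, limma adjusted p = 2.54e-09). Its ARC libraries, at 38.3, 43.6, 45.7, 49.6 and 57.0 RPKM, overlapped those of the PVN in 2 libraries. Its DMH libraries, at 24.8, 25.4, 27.5, 34.0 and 37.4, all lay under the ARC. Pdia3, Pdia4 and Pdia6 were lower in the VMH than in the PVN by 0.63, 0.75 and 0.68 (SE 0.11, 0.19 and 0.13). Of the secreted or luminal stress proteins, Manf, a neurotrophic factor released under ER stress, was lower in the VMH by 0.998 (SE 0.20, limma adjusted p = 0.000608), and Creld2, which has isomerase activity, by 0.74 (SE 0.28, limma adjusted p = 0.127), which was not called.

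The sensors were expressed at low levels and did not behave alike. Ern1 (IRE1) had the largest difference of the list between VMH and PVN. It was at 5.72, 8.09 and 11.1 RPKM (lowest, median and highest of 6) in the fed PVN and at 1.10, 1.83 and 3.19 in the fed VMH, a difference of 1.64 (SE 0.17, limma adjusted p = 4.98e-09) with no overlap. The ARC libraries, at 3.18, 4.32, 4.97, 5.15 and 5.32 RPKM, and the DMH libraries, at 2.37, 2.46, 3.78, 3.96 and 4.58, lay under the PVN and overlapped each other and the VMH. Eif2ak3 (PERK) was lower in the VMH than in the PVN by 1.22 (SE 0.20, limma adjusted p = 4.52e-05), but fed PVN library 1, at 1.85 RPKM, lay far under the other 5 (3.86 to 7.59). Exons of another gene overlap 8.05% of its exon length. Atf6 was level across the fed nuclei, at 9.21 ± 3.04 RPKM (ARC), 9.71 ± 2.68 (VMH), 9.35 ± 0.717 (DMH) and 9.75 ± 1.57 (PVN; SD, n = 5, 6, 5 and 6). The VMH minus PVN difference of Atf6 was -0.03 (SE 0.16).

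The transcription factors split in the same way. Xbp1 was at 31.4, 46.6 and 58.3 RPKM (lowest, median and highest of 6) in the fed PVN and at 14.0, 18.9 and 43.8 in the fed VMH, a difference of 1.004 (SE 0.21, limma adjusted p = 0.000900). The highest fed VMH library, library 1, lay inside the PVN range. Atf4 and Ddit3 were not called. Atf4 was at 71.0 ± 7.27 RPKM in the fed PVN and 57.1 ± 17.7 in the fed VMH, and Ddit3 at 11.6 ± 2.996 and 19.1 ± 12.1 (SD, n = 6 each), the latter with 1 VMH library, library 4, at 41.8. Exons of other genes, Mars among them, overlap 10.9% of the exon length of Ddit3. None of the 4 targets of the PERK and ATF4 arm (Trib3, Chac1, Asns and Ppp1r15a) and none of the 6 degradation factors (Herpud1, Syvn1, Sel1l, Edem1, Derl1 and Derl2) was called by the F test in fed nuclei. The smallest limma adjusted p in these groups were those of Sel1l (0.150), Syvn1 (0.161) and Trib3 (0.163).

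**Figure D3:**
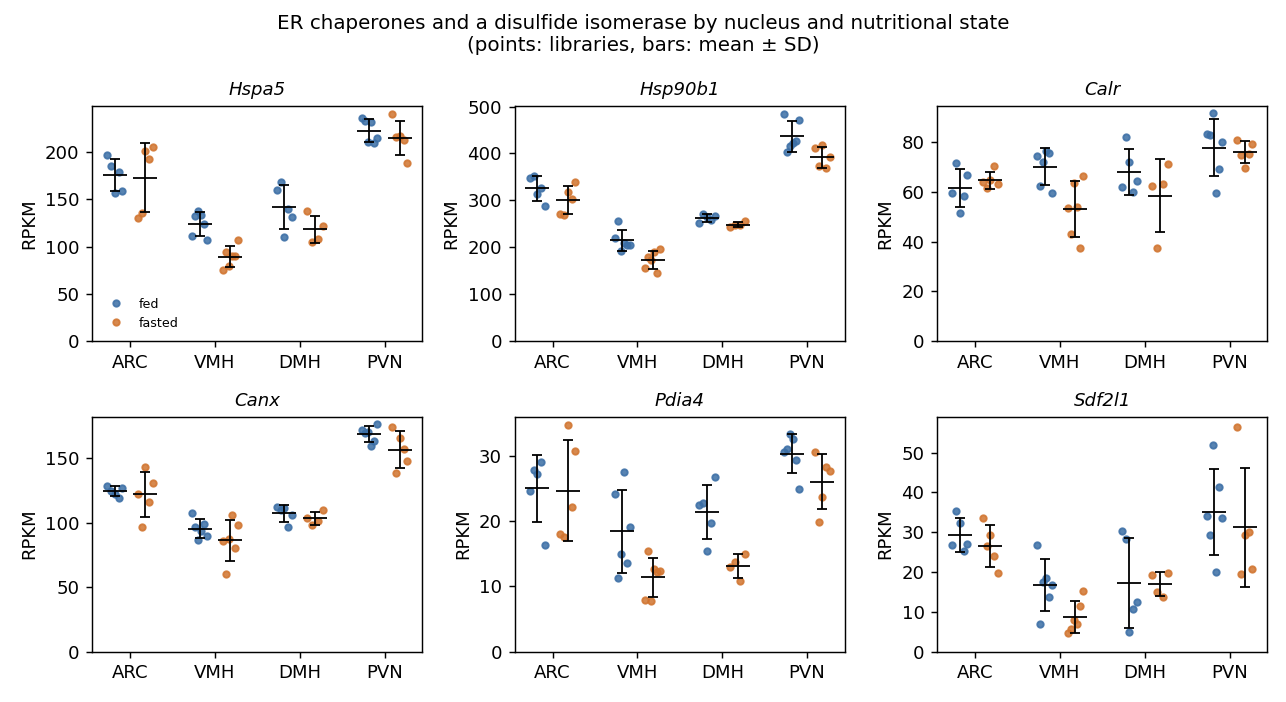
RPKM (y axes, from 0) of 5 chaperones or chaperone-associated proteins and the isomerase Pdia4 in fed and fasted libraries of each nucleus. Points are libraries and bars the mean ± SD. Hspa5 in the fasted VMH (75.0 to 106 RPKM) lies below every fed VMH library (107 to 138).

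The central question of the series was how these nuclei respond to a 24-hour fast. Of the 32 genes, 2 were called, both lower in the fasted VMH, and they were the luminal chaperones Hspa5 and Hsp90b1. In the VMH 0.131% of all genes were called in either direction and 0.0596% were called lower. In the ARC, DMH and PVN limma called 0 of the 32 genes, where it called 0.0566%, 0.0238% and 0.0715% of all genes. The median change of the list was -0.14 in the VMH (25 of 32 genes negative, against 36.6% of all genes), -0.07 in the DMH (22, against 42.8%) and -0.05 in the PVN (22, against 46.6%). The median over all genes was 0, many of them genes without reads. Genes with no difference at all, which cannot be negative, made up 24.3% (VMH), 14.1% (DMH), 14.1% (PVN) and 25.2% (ARC) of all genes. The shares of negative genes are lower for that reason. Among genes of at least 5 RPKM in at least 4 libraries, 41.2% (VMH), 41.9% (DMH), 46.1% (PVN) and 39.9% (ARC) were negative. Genes with no difference still made up 21.0% (VMH), 14.7% (DMH), 14.7% (PVN) and 20.9% (ARC) of these, which lowers these shares too. In the ARC the median of the list was -0.04 (18, against 35.5%), which became 0.02 with array weights and 0.05 without fasted library 1. It was also positive without fasted library 2 (0.03), fed library 1 (0.01) or fed library 2 (0.01). The DMH median was -0.04 without fasted library 2 and -0.12 without fasted library 4 or fed library 4. The PVN median was -0.02 without fasted library 2, and -0.09, -0.09 and -0.08 without fasted libraries 1, 3 and 4. Within batches 1, 2 and 3 the median was -0.25, -0.04 and 0.08 in the ARC and 0.01, -0.14 and 0.03 in the PVN.

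**Figure D4:**
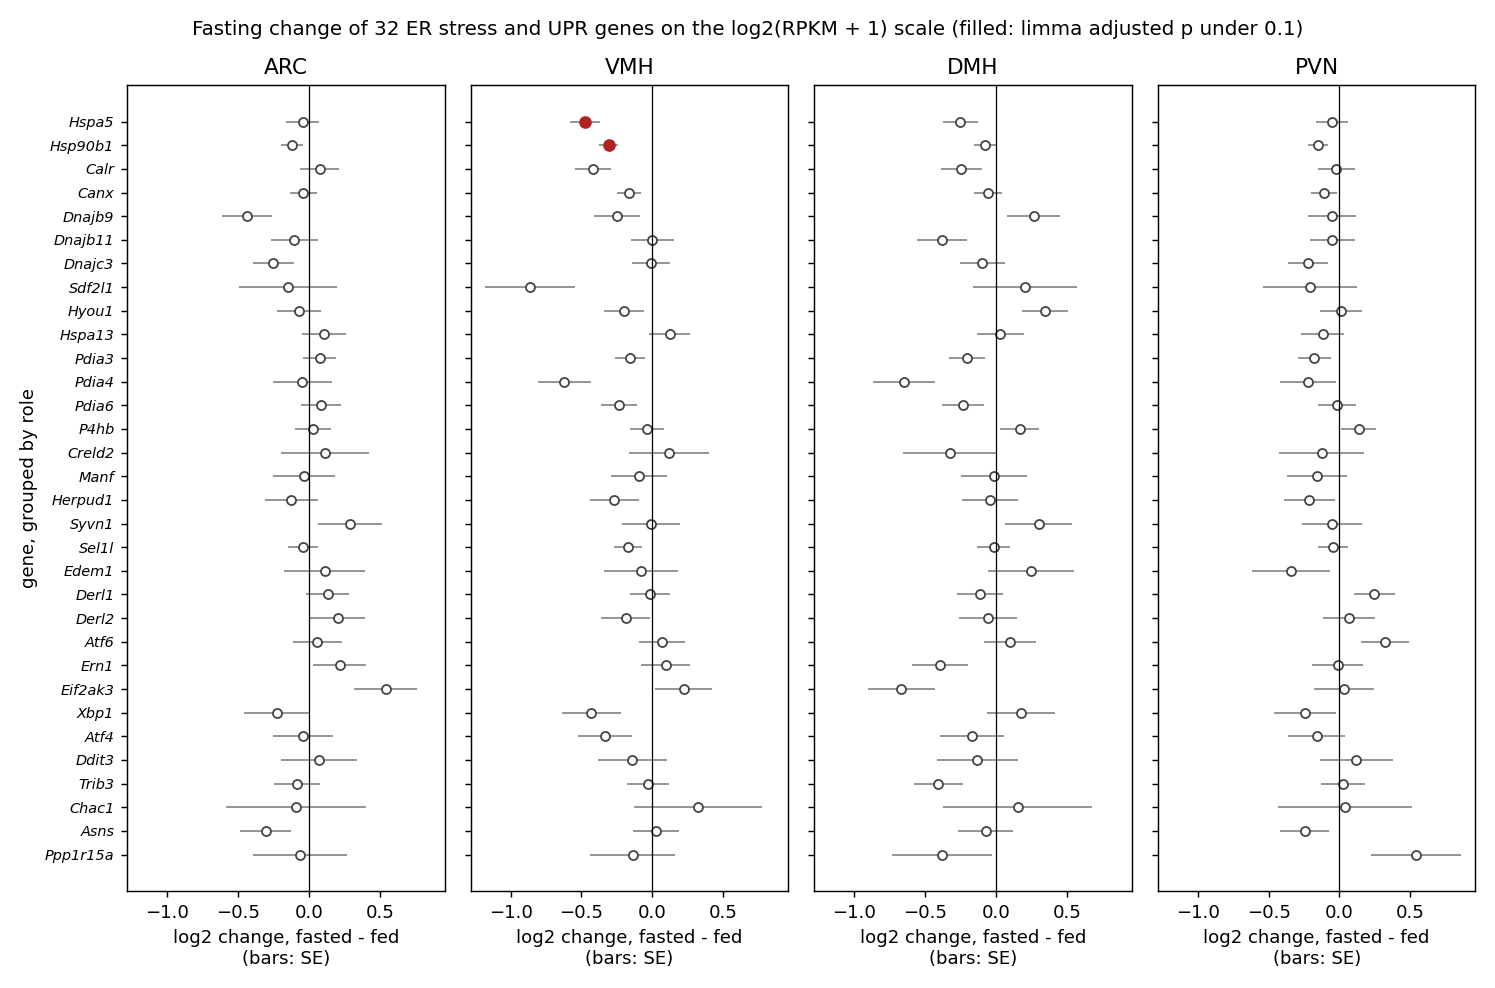
Log2 change of fasted against fed (x axes) of the 32 genes (rows, grouped by role) in each nucleus. Points are estimates, bars the SE, and filled points the genes with a limma adjusted p under 0.1, Hspa5 (-0.48) and Hsp90b1 (-0.31) in the VMH.

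In the VMH, Hspa5 was at 107, 128 and 138 RPKM (lowest, median and highest of 6) in fed and at 75.0, 90.05 and 106 in fasted mice. Every fasted library lay under every fed library, as was so for 0.146% of all genes. It fell by 0.48 (SE 0.11, limma adjusted p = 0.0828, two-sided exact permutation p = 0.00216). Within batches 1, 2 and 3 the change was -0.52, -0.67 and -0.24. In the other nuclei it was not called, with 175 ± 17.1 and 173 ± 36.7 RPKM in the ARC (SD, n = 5 and 5), 142 ± 23.1 and 118 ± 14.6 in the DMH (n = 5 and 4) and 222 ± 11.97 and 215 ± 18.3 in the PVN (n = 6 and 5).

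Hsp90b1 in the VMH was at 193, 207 and 257 RPKM (lowest, median and highest of 6) in fed and at 145, 176 and 196 in fasted mice. Each of the 6 fasted libraries lay under the fed mean, and the groups overlapped in 1 library. It fell by 0.31 (SE 0.07, limma adjusted p = 0.0817), the exact permutation test gave p = 0.00433, and within batches 1, 2 and 3 the change was -0.50, -0.15 and -0.28. Both calls were near the threshold and were lost with batch as a covariate, with array weights, when the VMH was fitted alone and without libraries of under 2 M reads. The fit with batch as a covariate accounts for the batch differences already removed from the values, which the main fit does not. Leaving out 1 of the 12 VMH libraries ended the call of Hsp90b1 in 7 fits (limma adjusted p from 0.0407 to 0.216) and that of Hspa5 in 9 (0.0505 to 0.184), while the changes stayed between -0.35 and -0.26 and between -0.53 and -0.43. The VMH libraries whose loss ended a call were fasted 1, 2 and 3 and fed 1, 2 and 4 for both genes, fasted 5 for Hsp90b1, and fasted 4 and fed 3 and 5 for Hspa5. Over all 42 fits that left out 1 library of any nucleus, the call was lost in 7 for Hsp90b1 and in 12 for Hspa5.

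In the mean of the 4 nuclei Hsp90b1 was the 1 gene of the list called, against 0.286% of all genes called lower. It fell by 0.16 (SE 0.04, limma adjusted p = 0.0290). Its change by nucleus was -0.12 (ARC), -0.31 (VMH), -0.08 (DMH) and -0.15 (PVN). This call was kept in each of the 42 fits that left out 1 library (limma adjusted p from 0.0144 to 0.0536). Of the cell type markers, Aqp4 was also lower in the mean of the 4 nuclei, by 0.59 (SE 0.10, limma adjusted p = 0.00131), with 3 of 5 astrocyte markers negative, and all 5 microglial markers were negative with none called (median -0.13). Their part in the change of Hsp90b1 was not tested. Its libraries in the fasted PVN were at 368, 372, 391, 411 and 418 RPKM, against 403, 424 and 484 (lowest, median and highest of 6) in fed mice, so 3 of the 5 lay under every fed library (exact permutation p = 0.0303). In the fasted DMH they were at 243, 247, 247 and 257 RPKM, against 250.9 to 272 in fed mice. The next genes by p in the mean of the 4 nuclei were Pdia4, at -0.38 (SE 0.10, limma adjusted p = 0.108), and Hspa5, at -0.21 (SE 0.06, limma adjusted p = 0.143), and neither was called. Without adjustment, 4 genes were lower at p under 0.05 and 0 higher, where 3.28% of all genes were lower.

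At an unadjusted p under 0.05 in the VMH, 6 of the 32 genes were lower, against 3.56% of all genes, and 0 were higher, against 3.75%. Beside Hspa5 and Hsp90b1 these were Calr, Pdia4, Sdf2l1 and Xbp1, none of which was called. Calr was at 59.6, 73.3 and 76.5 RPKM (lowest, median and highest of 6) in fed and 37.6, 53.8 and 66.2 in fasted mice, a change of -0.42 (SE 0.13, limma adjusted p = 0.312), and between -0.49 and -0.34 within the 3 batches. Pdia4, an isomerase with several thioredoxin-like domains, was at 11.4, 17.0 and 27.6 RPKM in fed and 7.82, 12.3 and 15.4 in fasted mice, a change of -0.62 (SE 0.19, limma adjusted p = 0.312), and -0.54, -0.96 and -0.36 within batches. Sdf2l1, which acts with ER DnaJ proteins, was at 6.84, 17.1 and 26.8 RPKM in fed and 4.66, 7.54 and 15.2 in fasted mice, a change of -0.86 (SE 0.32, limma adjusted p = 0.450), and -1.26, -1.15 and -0.18 within batches 1, 2 and 3. For each of these genes the groups overlapped, and all 6 fasted libraries lay under the fed mean.

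Xbp1 in the VMH was at 14.0, 18.9 and 43.8 RPKM (lowest, median and highest of 6) in fed and at 8.86, 17.6 and 20.7 in fasted mice. Its change of -0.43 (SE 0.21, limma adjusted p = 0.617) lay mostly in batch 1, where it was -1.39, against -0.11 in batch 2 and 0.21 in batch 3. The median change of the list in the VMH was also most negative in batch 1, at -0.36, against -0.06 and -0.03 in batches 2 and 3. By role, 9 of the 10 chaperones and co-chaperones, all 4 isomerases, all 6 degradation factors and all 3 transcription factors had a negative change in the VMH, and the 3 sensors a positive one. Several of these signs belong to changes near 0, such as Dnajb11 (-0.0004), Dnajc3 (-0.008), Syvn1 (-0.01), Derl1 (-0.01) and P4hb (-0.04). The sensors Atf6, Ern1 and Eif2ak3 changed by 0.07, 0.09 and 0.22 (SE 0.16, 0.17 and 0.20), and none was called. A pattern by role was not tested. Among cell type markers the astrocyte water channel Aqp4 was lower in the fasted VMH by 0.94 (SE 0.19, limma adjusted p = 0.0477), 1 of the 5 astrocyte markers, which summed to 101.2 ± 12.7 RPKM in fed and 86.5 ± 10.1 in fasted VMH libraries (SD, n = 6 each). The 6 oligodendrocyte markers, none called, summed to 261 ± 41.9 and 233 ± 30.05 RPKM, and the 5 neuronal ones to 1181 ± 58.2 and 1143 ± 122. Their part in the change of the chaperones was not tested.

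In the DMH, 5 of the 32 genes were lower at an unadjusted p under 0.05, against 2.48% of all genes, and 1 was higher, Hyou1 at 0.35, against 3.99%. Pdia4 was at 15.4, 19.6, 22.4, 22.8 and 26.7 RPKM in fed and at 10.8, 13.01, 13.8 and 15.0 in fasted mice. All fasted libraries lay under all fed libraries, as they did for 0.468% of all genes, and the change was -0.65 (SE 0.22, limma adjusted p = 0.557, exact permutation p = 0.0159). Within batches 2 and 3 it was -0.45 and -0.80. Eif2ak3 was at 1.79, 2.37, 2.40, 2.87 and 4.06 RPKM in fed and at 0.813, 1.15, 1.18 and 2.21 in fasted mice, a change of -0.67 (SE 0.24, limma adjusted p = 0.634), and -0.35 and -0.93 within batches 2 and 3. The groups overlapped through fasted library 1. Trib3, a pseudokinase induced by ATF4 and CHOP, changed by -0.40 (SE 0.17, limma adjusted p = 0.654), with 0.527, 0.587, 0.804, 1.29 and 3.21 RPKM in fed and 0.488, 0.527, 0.563 and 0.825 in fasted mice. It had no reads beyond the added count in 30 of the 42 libraries, and without fed DMH library 3 its change was -0.16. Trib3 reached the 1 RPKM of the filter only in fed libraries, ARC 5 (1.17 RPKM), DMH 3 and 4 (3.21 and 1.29) and VMH 2 (1.32). Its lower values in fasted mice are thus partly set by the filter, and it adds no support to the count of 5. Dnajb11 changed by -0.38 and Hspa5 by -0.25. Batch 1 held no fasted DMH library, and the median change of the list was -0.24 in batch 2 and 0.05 in batch 3.

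In the ARC, 1 gene was lower (background 3.27%) and 1 higher (4.23%) at an unadjusted p under 0.05. Dnajb9 was at 20.3, 28.8, 29.7, 34.5 and 40.002 RPKM in fed and at 17.8, 19.1, 22.7, 23.6 and 27.5 in fasted mice, a change of -0.43 (SE 0.18, limma adjusted p = 0.647), and -1.03, -0.35 and -0.22 within batches 1, 2 and 3. Eif2ak3 was at 1.17, 1.34, 1.997, 2.24 and 2.30 RPKM in fed and at 2.25, 2.64, 2.74, 3.89 and 3.96 in fasted mice, a change of 0.54 (SE 0.22, limma adjusted p = 0.647, exact permutation p = 0.0159). Within batches it was 1.06, 0.36 and 0.46. For Eif2ak3 the groups overlapped in 1 fasted library. For Dnajb9 they overlapped through 1 fed library, at 20.3 RPKM (exact permutation p = 0.0635). Dnajc3, an inhibitor of PERK and a BiP co-chaperone, was at 24.9, 25.5, 25.8, 26.9 and 29.1 RPKM in fed and 14.2, 22.1, 22.7, 24.5 and 29.6 in fasted mice, a change of -0.25 (SE 0.15, limma adjusted p = 0.787). Within batches it was -0.82, -0.31 and 0.09, and without fasted library 1 it was -0.10.

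**Figure D5:**
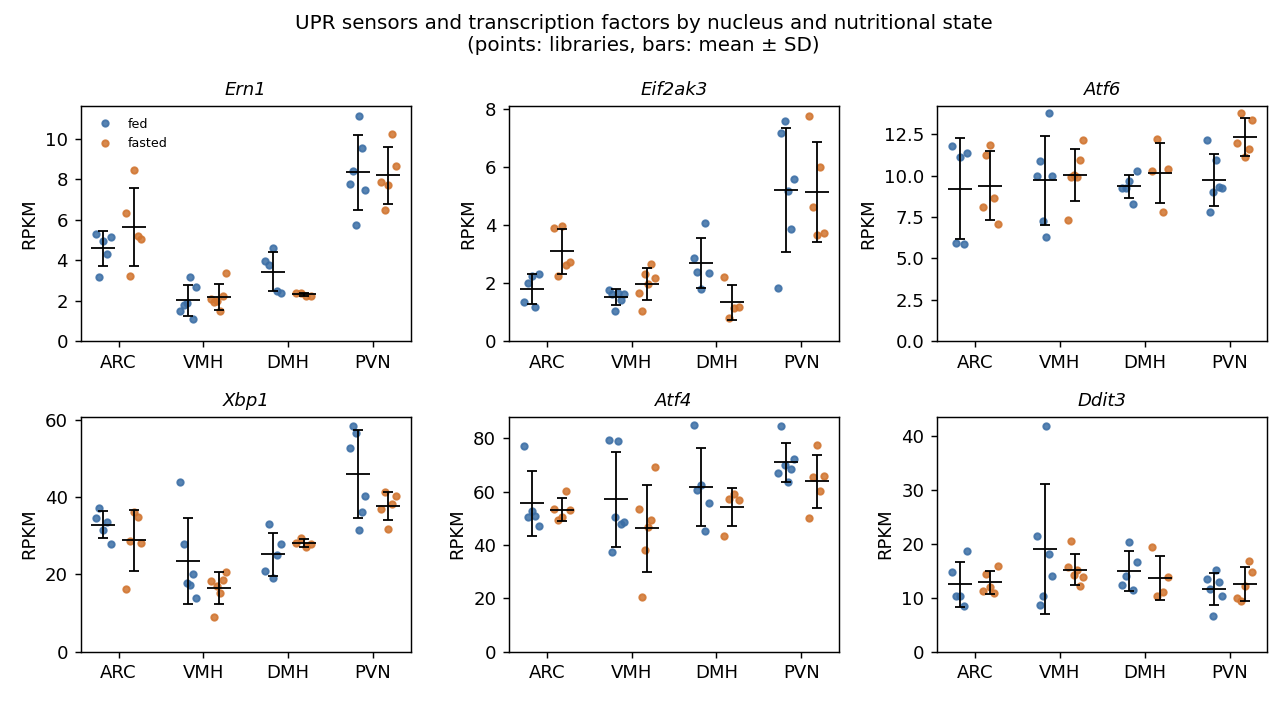
RPKM (y axes, from 0) of the sensors Ern1, Eif2ak3 and Atf6 and the transcription factors Xbp1, Atf4 and Ddit3 in fed and fasted libraries of each nucleus. Points are libraries and bars the mean ± SD. Ern1, Eif2ak3 and Xbp1 are highest in the PVN in both states, and the group means of Atf6 lie between 9.21 and 12.4 RPKM.

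In the PVN, 1 gene was lower at an unadjusted p under 0.05, Hsp90b1 (background 2.53%), and 0 were higher (3.0%). Atf6 was at 7.78, 9.27 and 12.2 RPKM (lowest, median and highest of 6) in fed and at 11.1, 11.6, 11.99, 13.4 and 13.8 in fasted mice, a change of 0.32 (SE 0.17, limma adjusted p = 0.957, exact permutation p = 0.0260). Ppp1r15a (GADD34), which directs the dephosphorylation of eIF2alpha, was at 1.23, 1.81 and 3.83 RPKM in fed and at 2.09, 3.17, 3.40, 4.07 and 4.28 in fasted mice. Its change was 0.54 (SE 0.32, limma adjusted p = 1, exact permutation p = 0.0433). The groups overlapped for both. In the ARC and PVN no gene of the list had all fasted libraries under all fed ones, as 0.334% and 0.182% of all genes did, and no gene of the list had all of them above in any nucleus, as 0.408%, 0.131%, 0.685% and 0.22% of all genes did in the ARC, VMH, DMH and PVN.

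The interaction of state and nucleus tested if fasting acted unequally across the 4 nuclei. It called 0 of the 32 genes, against 0.00596% of all genes. Without adjustment 2 genes had p under 0.05, Eif2ak3 (0.00582) and Hspa5 (0.0263), against 4.39% of all genes, and the limma adjusted p of Eif2ak3 was 0.992. So these data do not show that the fall of Hspa5 differed between the VMH and the other nuclei.

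The sensors Ern1, Eif2ak3 and Atf6 and the transcription factors Xbp1, Atf4 and Ddit3 were not called for fasting in any nucleus. Atf4 changed by -0.04, -0.33, -0.17 and -0.16 in ARC, VMH, DMH and PVN (SE 0.21, 0.19, 0.22 and 0.20), and Ddit3 by 0.07, -0.14, -0.13 and 0.12 (SE 0.27, 0.24, 0.28 and 0.26). In the VMH, Atf4 was at 37.3, 49.6 and 79.3 RPKM (lowest, median and highest of 6) in fed and 20.3, 48.0 and 69.2 in fasted mice, and Ddit3 at 8.71, 16.0 and 41.8 in fed and 12.1, 14.6 and 20.5 in fasted mice. The groups overlapped over most of their range for both. In the PVN, Atf4 ran from 63.7 to 84.7 RPKM in fed and from 49.9 to 77.3 in fasted mice, and Ddit3 from 6.54 to 15.2 and from 9.38 to 16.8. Ern1 changed by 0.22, 0.09, -0.39 and -0.01 (SE 0.19, 0.17, 0.20 and 0.18). In the fasted DMH the 4 libraries of Ern1 were at 2.21, 2.25, 2.38 and 2.39 RPKM, against 2.37 to 4.58 in fed mice. All 4 lay under the fed mean (exact permutation p = 0.0476, limma adjusted p = 0.802), and the groups overlapped. Chac1, which degrades glutathione, had the widest SE of the list, 0.45 to 0.53 by nucleus. Of the 32 genes, Trib3, Ppp1r15a and Chac1 had the fewest reads, an estimated median of 0, 23.6 and 28.1 per library, followed by Eif2ak3 at 59.2 and Edem1 at 69.3.

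Apart from the 32, 69 other genes of the pathway were examined from a list of folding, degradation, sensing, stress response and export genes. In single nuclei 0 of the 69 were called by limma. In the mean of the 4 nuclei Dnajc10 (ERdj5), an ER reductase, rose by 0.31 (SE 0.07, limma adjusted p = 0.0470), and Slc7a5, a large neutral amino acid transporter, by 0.54 (SE 0.14, limma adjusted p = 0.0986). Slc7a11, the cystine transporter, fell by 0.38 (SE 0.08, limma adjusted p = 0.0270). By nucleus (ARC, VMH, DMH, PVN) the changes of Dnajc10 were 0.27, 0.37, 0.24 and 0.35, those of Slc7a5 0.44, 0.29, 0.90 and 0.51, and those of Slc7a11 -0.23, -0.42, -0.47 and -0.40. Slc7a5 and Slc7a11 are both known ATF4 targets, and they moved in opposite directions. Creb3l2, an ATF6-related factor of secretory cells, was at 5.46 ± 1.42 RPKM in the fed and 12.6 ± 3.95 in the fasted ARC (SD, n = 5 each), a change of 1.055 (SE 0.23, limma adjusted p = 0.107), which missed the threshold.

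Between fed nuclei, 26 of the 69 genes were higher in the PVN than in the VMH, against 4.96% of all genes, and 2 were lower, against 4.88%. By group, these were 12 of 16 translocation and export genes, 5 of 12 folding genes, 4 of 12 degradation genes, 3 of 12 sensing genes and 2 of 17 stress response targets. Fkbp11, a prolyl isomerase of secretory tissues, was at 17.3 ± 3.27 RPKM in the fed PVN and 2.32 ± 0.951 in the fed VMH (SD, n = 6 each), a VMH minus PVN difference of -2.48 (SE 0.28, limma adjusted p = 3.87e-08). Creb3l2 was at 13.6 ± 1.32 and 2.94 ± 1.47 RPKM, with a VMH minus PVN difference of -1.96 (SE 0.21, limma adjusted p = 1.24e-08).

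Within groups the genes moved together only weakly. Over the 42 libraries, the deviations of 2 members from their group means had a median Pearson correlation of 0.07 over 496 pairs, against 0.002 between members and all other varying genes. It was 0.17 among the chaperones and 0.17 among the isomerases. Hspa5 correlated best with Manf (0.46), Hsp90b1 (0.45) and Pdia4 (0.44). These libraries share batches and differ in depth, and the correlation of a member's deviations with log2 depth ran from -0.11 for Edem1 to 0.39 for Herpud1. The 10 genes with an exact ERSE or ERSE-II in the promoter had a median VMH change of -0.20, with 9 of 10 negative, and the 17 with neither had a median of -0.14, with 13 of 17 negative. Between fed nuclei, 5 of the 10 and 8 of the 17 were called.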

How the data were processed

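RNA was taken from laser-captured hypothalamic nuclei, amplified (NuGEN Ovation RNA-Seq V2), made into unstranded single-end libraries and sequenced. According to the labels and the study's methods, the authors aligned reads to GRCm38 with TopHat2 2.0.11 and used Cufflinks 2.2.1, edgeR and limma, with CASAVA 1.7 upstream, and deposited RPKM values per gene. The study's methods also state that samples with outlying global expression profiles were excluded, which can narrow the spread within groups. How many of them belonged to the groups used here is not known. The deposited RPKM values held no 0. A count of 5.0 reads in the mean (1.45 to 14.5 per library) had been added, and 98.0% to 99.1% of low values were then whole reads (within 0.1). The added count lowers the fold change of low genes. Batches (10, 16 and 16 libraries) and depth were inferred from these values.

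Genes of at least 1 RPKM in at least 4 of 42 libraries (33579) were fitted with limma 3.58.1 (R 4.3.3) on log2(RPKM + 1), with 8 group means, an intensity trend and two-sided tests. P-values were adjusted by Benjamini-Hochberg over all genes, with a threshold of 0.1. Single genes were also compared by a two-sided exact permutation test in Python 3.11.15 (scipy 1.17.1). No p-value was given for the list. The scripts were tested on simulated data. Alternatives were another pseudocount, other filters, each nucleus alone, array weights, quantile normalization, batch, depth, the replicate number, and leaving out each library.

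The 32 genes and the other lists were chosen with earlier results of these data known. The genes named are the 3 of lowest p per nucleus, the 5 of lowest p between fed nuclei, and Hspa5, Xbp1, Atf4, Ddit3, Ern1, Eif2ak3 and Atf6. Other members named were chosen after their values were seen. Protein sequences were not analysed here.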

Additional observations from a re-analysis of the deposited data

Results flagged for a closer look

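Among 16 named genes in 8 groups, 128 gene and group pairs were examined for a library far from the rest of its group (Dixon's gap, of which chance flags about 1 in 20, or 6.4 here), and 12 were found. Dnajc3 was at 23.6 RPKM in fasted VMH library 1, the shallowest of the series at 1.33 M reads, against 11.9 to 14.9 in the others, and at 21.9 in fed VMH library 1, against 12.7 to 16.1. Atf4 was at 77.0 RPKM in fed ARC library 1, against 47.1 to 52.9, and at 43.5 in fasted DMH library 1, against 56.9 to 58.9. Ppp1r15a was at 3.83 RPKM in fed PVN library 1, against 1.23 to 2.16, and at 8.36 in fed VMH library 1, against 0.725 to 2.65. Trib3 stood apart in 6 groups, at 1.17 RPKM in fed ARC library 5, 3.21 in fed DMH library 3, 0.761 in fasted PVN library 4, 0.606 in fed PVN library 6, 0.981 in fasted VMH library 4 and 1.32 in fed VMH library 2. In 5 of these groups, all but the fed DMH, every other library was between 0.488 and 0.532 RPKM, where no read beyond the added count was seen.

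For 4 genes every fasted library of one nucleus lay on one side of the fed mean and every fasted library of another nucleus on the opposite side. The share of all genes that meet this rule was not computed, so the count is a description only. The change of Calr in the ARC minus that in the VMH was 0.49. That of Dnajb9 was -0.70 for ARC minus DMH and -0.52 for VMH minus DMH. For Xbp1 it was -0.61 for VMH minus DMH and 0.42 for DMH minus PVN, and for Eif2ak3 1.21 for ARC minus DMH. These differences between pairs of nuclei were not tested, and the limma interaction over the 4 nuclei called none of the 4 genes, with 2 of the 32 (Eif2ak3 and Hspa5) at an unadjusted p under 0.05.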

How the results depend on the processing

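The count of called genes in the VMH, 2 as reported, was 0 when the nucleus was fitted alone, with array weights or with batch as a covariate, and 1 with quantile normalization. It was 0 without the 3 libraries of under 2 M reads, a setting chosen after seeing the data, and 0 to 2 without single libraries. Same-numbered fed and fasted libraries did not deviate together (20 pairs, correlations from -0.10 to 0.06). In the ARC and VMH each such pair lay in the same batch, so in the VMH the replicate block overlaps with batch as a covariate. Batch differences had been removed from the values, which lowers correlations within a batch, so these correlations could not exclude pairing there. With the replicate block the VMH count was 0, with limma adjusted p of 0.124 for Hsp90b1 and 0.154 for Hspa5. In the mean of the 4 nuclei the count, 1 as reported, was 3 with a filter of 5 RPKM, 2 with array weights, 3 with quantile normalization, 2 with depth as a covariate, and 1 to 3 without single libraries. The cause was not tested. Over the 10 alternatives Hsp90b1 in the VMH changed by -0.32 to -0.26 (limma adjusted p from 0.0535 to 0.868) and Hspa5 by -0.49 to -0.46 (0.0535 to 0.486), and Hsp90b1 in the mean of the 4 nuclei by -0.18 to -0.15 (0.0160 to 0.0644). Counts between nuclei were 16 to 17 in fed and 17 to 19 in fasted mice without single libraries. Ppp1r15a, Trib3, Edem1 and Derl2 could not be tested with the filter of 5 RPKM. Low read numbers limit what can be seen for Trib3, Ppp1r15a and Chac1.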
